A study of Xenopus laevis with 12 samples.

Results

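Genes of tight junctions, desmosomes and gap junctions were followed in neural crest of the frog Xenopus laevis, where embryos injected with an miR-196a morpholino were set against embryos with a mismatch morpholino. A gene was included when its name in either of the authors' deposited tables began with the symbol of a claudin, occludin, a zonula occludens protein (tjp), a MARVEL domain protein, cingulin or paracingulin (cgn, cgnl1), junctional adhesion molecule A (f11r), a desmoglein, a desmocollin, desmoplakin, periplakin, envoplakin, a plakophilin, plakoglobin (jup) or a connexin of the gja, gjb or gjc families. The rule refers to names and to no measured value, and it was set with earlier results of these data known. It gave 67 of the 19252 genes in the tables, of which 62 of 18206 were listed at stage 14, 65 of 18556 at stage 17 and 60 at both stages. They were 20 claudins, 8 other tight junction membrane proteins, 8 scaffold proteins, 4 desmosomal cadherins, 5 plakins, 8 plakophilin and plakoglobin genes and 14 connexins.

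A morpholino is an antisense oligonucleotide analogue that blocks its target RNA. Embryos of wild-type genotype were given 60 ng of one in a dorsal blastomere of the right side when they had 4 cells, and were collected at Nieuwkoop and Faber (NF) stage 14 or 17, both during neurulation. Each stage had 3 samples with the miR-196a morpholino and 3 with the mismatch morpholino, 12 samples in 4 groups. Embryos of every group thus carried a morpholino, and no uninjected group was analysed here. The labels do not say whether the tissue was taken from the injected side alone, or whether the samples of a group came from separate batches of embryos, so p-values measure the spread between these samples only. The batch label repeats the stage, and batch and stage cannot be told apart.

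Tight junctions seal the space between neighbouring epithelial cells. Claudins and occludin form their strands in the membrane, and zonula occludens proteins and cingulin tie these strands to actin. Desmosomes hold cells together mechanically: desmogleins and desmocollins bind across the gap, plakoglobin and plakophilins bind their tails, and desmoplakin links the plaque to keratin filaments. Gap junctions are channels of connexins through which small molecules pass between cells. In the embryo these junctions are typical of the epidermis and the neural plate, and neural crest cells remodel them as they leave the epithelium.

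For every gene and stage the authors' deposited tables list the mean normalised count over both arms, the log2 fold change and an adjusted p-value, with the standard error (SE) of the change. A gene was called where its adjusted p-value was under 0.05. Values per sample were not used here. Arm levels were therefore estimated from mean and fold change as if both arms had equally many samples, and carry no error of their own. Which arm is the numerator is not stated in the tables, so the arms are called numerator and denominator arm and signs are given as deposited. Estimates of 3 normalised counts or fewer count as the floor, and a fold against the floor is a lower bound. Counts are not corrected for gene length, and levels are not compared between different genes. Xenopus laevis is allotetraploid, and most genes exist as a .L and a .S copy, called homeologs. How reads shared by near-identical copies were assigned is not given in the sources used here, so the value of 1 copy is uncertain. As an alternative, copies were averaged by inverse variance, which assumes that they are independent and share 1 change, and the adjustment was repeated over pairs and single copies. The averaged value is given where it changes a call.

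Junction genes were called at both stages and in both directions. At stage 14, 14 of the 56 members with an adjusted p-value (25%) were called in the authors' deposited table, against 8.68% of all genes. Of these, 9 were lower in the numerator arm (5.62% of all genes) and 5 were higher (3.06% of all genes). At stage 17, 14 of 55 members (25.5%) were called, against 9.96% of all genes, again with 9 lower (5.00% of all genes) and 5 higher (4.96% of all genes). The median log2 fold change of the members was -0.19 at stage 14 and -0.25 at stage 17, beside 0.022 and -0.0026 for all genes with an adjusted p-value. Their median absolute log2 fold change was 0.93 and 0.92, beside 0.53 and 0.50 for all genes. Of the other members, 6 at stage 14 and 10 at stage 17 had no adjusted p-value and could not be called. Their mean normalised counts were at most 3.25 and 5.02. Of the genes called at stage 14, 2 (cldn8.1.L, gjb1.L) had an arm at the floor.

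**Figure D1:**
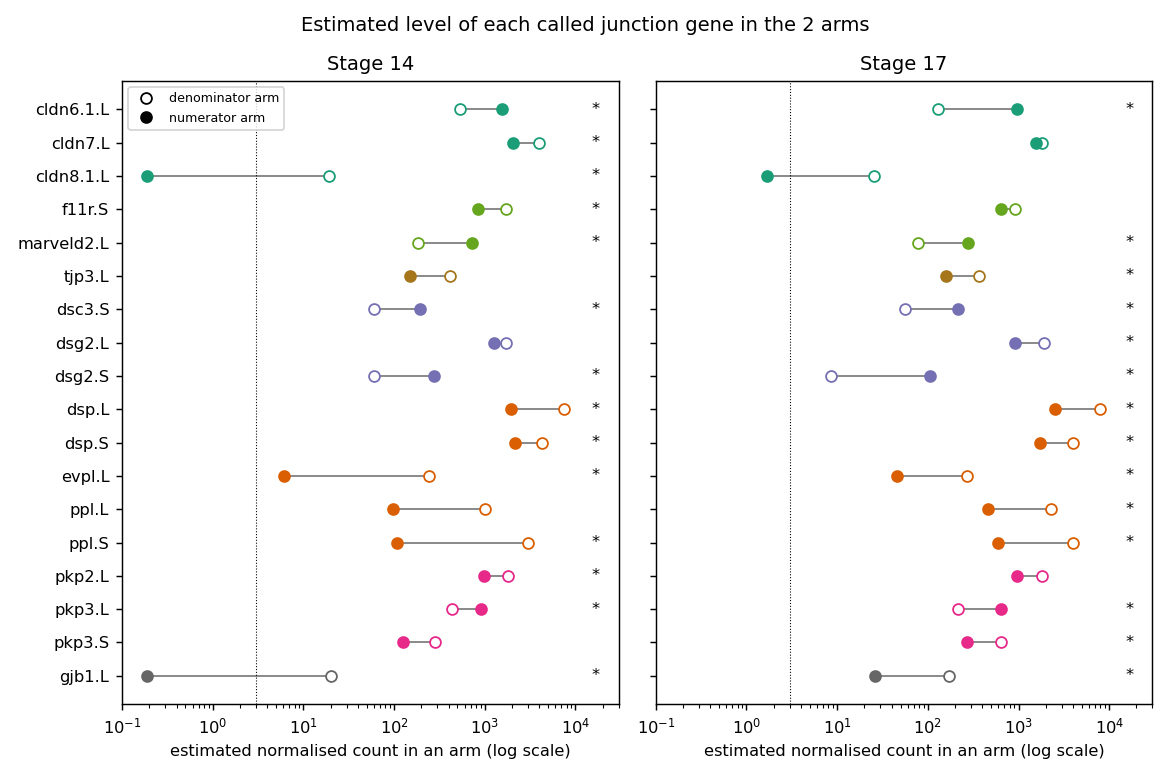
Estimated normalised count of the 18 members called at 1 stage or both, in the denominator arm (open circles) and the numerator arm (filled circles), on a log axis, at stage 14 (left) and stage 17 (right). Colours mark the gene families, an asterisk a call at that stage and the dotted line the floor of 3. The plakins dsp, ppl and evpl lie lower in the numerator arm at both stages, and cldn6.1.L, marveld2.L, dsc3.S, dsg2.S and pkp3.L lie higher.

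Markers of several tissues that the samples could hold were called as well. Over all genes 8.68% were called at stage 14 and 9.96% at stage 17. Some genes are in 2 lists: itln1.L counts as an epidermal and a mucus cell gene. Both copies of cdh1 count as epidermal genes here and as other junction genes below. By the authors' deposited tables, epidermal markers had 11 of 18 tested genes called at stage 14 and 7 of 18 at stage 17. Each of the called genes was lower in the numerator arm. The estimated summed level of the epidermal list was 228118 normalised counts in the denominator and 44907 in the numerator arm at stage 14. At stage 17 it was 286563 and 109630. Such sums carry no error and follow the genes with the highest counts, called or not. In the denominator sum at stage 14, krt70.S made up 80690 and c3.L 60966. Neural crest markers had 14 of 16 called at stage 14 and 4 of 16 at stage 17, each lower in the numerator arm, with sums of 32084 and 3355 at stage 14 and 88968 and 42538 at stage 17 in the denominator and numerator arm. Neural plate markers had 4 of 9 called at stage 14 and 8 of 9 at stage 17, each higher in the numerator arm. Sums over the list in the denominator and numerator arm were 22185 and 37855 at stage 14, and 4494 and 24480 at stage 17. Every row of these 3 lists was above the floor in its mean, except 1 epidermal row at stage 17. Of their called genes, tp63.L (0.19) and sox10.S (1.40) at stage 14 had a numerator arm under the floor. At stage 17 foxd4l1.1.S (0.20) had a denominator arm under it. Both mucus cell genes tested were called at both stages, lower in the numerator arm. Also called lower were 4 of 12 multiciliated cell genes at stage 14 and 1 of 10 at stage 17. Of ionocyte genes 1 of 9 was called lower at stage 14 and 2 of 8 at stage 17. The numerator arm was under the floor for the called ubp1.L at stage 14 (1.11) and the called slc4a9.L at stage 17 (1.41). In the other direction, foxi2.S was at 3.79 and 2.66 without a call, with denominator arms under the floor. The median log2 fold change of the tested genes was -3.73 and -1.37 for multiciliated cells and -2.13 and -3.35 for ionocytes. Of 4 notochord genes 2 (not.L, not.S) were called higher at stage 14, and 1 of 3 (tbxt.S) was called lower at stage 17. These were different genes, and each kept its sign. At stage 17 not.L was at 1.73 and not.S at 1.34, and at stage 14 tbxt.S was at -0.82, none of them called. Of muscle genes 1 of 2, myod1.S, was called lower at stage 14 (adjusted p = 0.0493 in the authors' deposited table). Its numerator arm, at 0.19 normalised counts, was under the floor. The other muscle gene, myf5.L, went the opposite way at 6.67 (adjusted p = 0.17 in the authors' deposited table) and was not called. Its denominator arm, at 0.17, was under the floor. At stage 17, 0 of 1 muscle genes was called. Of endoderm genes 0 of 2 and 0 of 1 were called by the authors' adjusted p-value. The part of these tissues in the junction results was not tested, and in bulk tissue fewer cells of a type and less RNA per cell cannot be told apart.

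The plakins, which anchor junctions to intermediate filaments, were the family with the most calls. In the authors' deposited tables, 4 of 5 were called at stage 14 and 5 of 5 at stage 17, each lower in the numerator arm. The shares of all genes called were 8.68% and 9.96%. Desmoplakin dsp.L was estimated at 7486 normalised counts in the denominator arm and 1964 in the numerator arm at stage 14. At stage 17 its levels were 7985 and 2554. The authors' deposited tables gave dsp.L a log2 fold change of -1.93 (adjusted p = 1.81e-12, SE 0.25) at stage 14 and -1.64 (adjusted p = 3.23e-04, SE 0.37) at stage 17, a 3.81-fold and a 3.13-fold lower level. Its homeolog dsp.S changed by -1.002 (adjusted p = 0.00469, SE 0.27) and -1.23 (adjusted p = 0.0258, SE 0.40) in the authors' deposited tables. Both copies of desmoplakin were thus lower in the numerator arm at both stages.

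Periplakin and envoplakin, which in mammals line the cornified envelope of the epidermis, were lower in the numerator arm as well. The level of ppl.S was 3002 in the denominator and 107 normalised counts in the numerator arm at stage 14, and 3955 and 594 at stage 17. Its log2 fold change, per the authors' deposited tables, was -4.82 (adjusted p = 3.15e-05, SE 0.96) and -2.74 (adjusted p = 1.01e-12, SE 0.34). For ppl.L the authors' deposited tables gave -3.34 (adjusted p = 0.0863, SE 1.28) at stage 14, which was not called, and -2.32 (adjusted p = 1.87e-08, SE 0.36) at stage 17. The stage 14 SE of ppl.L was larger than that of 99.5% of the 200 genes nearest in mean count, and that of ppl.S larger than 99% of them. Envoplakin evpl.L was at 244 and 6.13 normalised counts in the denominator and numerator arm at stage 14, and at 272 and 46 at stage 17. Its change was -5.32 (adjusted p = 1.26e-12, SE 0.67) and -2.56 (adjusted p = 0.00153, SE 0.63) in the authors' deposited tables.

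The desmosomal cadherins, which bridge the gap between cells, were called in both directions. In the authors' deposited tables, 2 of 4 were called at stage 14, both higher in the numerator arm, and 3 of 4 at stage 17, of which 2 were higher and 1 lower. Over all genes 8.68% and 9.96% were called. Desmoglein dsg2.S was at 60.7 normalised counts in the denominator and 275 in the numerator arm at stage 14. At stage 17 the levels of dsg2.S were 8.65 and 106. Its log2 fold change, per the authors' deposited tables, was 2.18 (adjusted p = 0.013, SE 0.65) and 3.61 (adjusted p = 0.00354, SE 0.95). The other copy, dsg2.L, held most of the counts of the pair and had changes of -0.43 (adjusted p = 0.352, SE 0.25) and -1.03 (adjusted p = 0.0232, SE 0.33) in the authors' deposited tables, so at stage 17 both copies were called with opposite signs. The difference between copies was not tested. Desmocollin dsc3.S was at 59.7 and 195 normalised counts in the denominator and numerator arm at stage 14 and at 56 and 215 at stage 17. The authors' deposited tables gave 1.71 (adjusted p = 0.0451, SE 0.59) and 1.94 (adjusted p = 0.00507, SE 0.53) for dsc3.S, and 0.0052 (adjusted p = 0.998, SE 0.51) and 0.029 (adjusted p = 0.976, SE 0.32) for dsc3.L. The 95% interval of dsc3.L at stage 17 ran from -0.60 to 0.65. With copies averaged neither gene was called: dsg2 was at -0.086 (adjusted p = 0.906) and -0.54 (adjusted p = 0.268), and dsc3 at 0.73 (adjusted p = 0.243) and 0.54 (adjusted p = 0.186). RefSeq (assembly Xenopus_laevis_v10.1) lists dsc3 and dsg2 as neighbours with 1 protein-coding gene between them on both homeologous chromosomes, and the 2 copies that were higher in the numerator arm at both stages lie on the same one.

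Plakophilins and plakoglobin, the armadillo repeat proteins of the desmosomal plaque, had 2 of 7 tested genes called at each stage, 1 in each direction, in the authors' deposited tables. This was 28.6%, beside 8.68% of all genes at stage 14 and 9.96% at stage 17. Plakophilin 3 was called in opposite directions in its copies. The level of pkp3.L was 440.2 normalised counts in the denominator and 910.2 in the numerator arm at stage 14, and 216 and 646 at stage 17. For pkp3.S these levels were 280.5 and 125 at stage 14, and 649 and 269 at stage 17. The authors' deposited tables gave pkp3.L a log2 fold change of 1.05 (adjusted p = 0.0208, SE 0.33) and 1.58 (adjusted p = 2.70e-04, SE 0.35). The change of pkp3.S in the authors' deposited tables was -1.17 (adjusted p = 0.25, SE 0.59) and -1.27 (adjusted p = 0.0138, SE 0.38), called at stage 17. Averaged over its copies, pkp3 was not called at stage 14 (0.53, adjusted p = 0.262) or stage 17 (0.27, adjusted p = 0.559). Plakophilin 2, known from the heart and from simple epithelia of mammals, was lower in the numerator arm at stage 14, where the authors' deposited table gave pkp2.L -0.91 (adjusted p = 0.0363, SE 0.30). At stage 17 its value was -0.92 (adjusted p = 0.0577, SE 0.33), just short of the threshold, and it passed (adjusted p = 0.0427) in the adjustment over pairs and single copies. Plakoglobin, which is shared by desmosomes and adherens junctions, was not called in either copy. In the authors' deposited tables its values were -0.64 (adjusted p = 0.45, SE 0.43) and -0.51 (adjusted p = 0.377, SE 0.32) for jup.L and -1.97 (adjusted p = 0.14, SE 0.84) and -0.84 (adjusted p = 0.133, SE 0.36) for jup.S. With copies averaged jup was called at stage 17 (-0.65, adjusted p = 0.045) and not at stage 14 (-0.92, adjusted p = 0.106). The SE of jup.S at stage 14 was larger than that of 99% of the 200 genes nearest in mean count. Neither copy of pkp4 was called, with log2 fold changes from -0.93 (pkp4.L, stage 14) to 0.79 (pkp4.S, stage 14) in the authors' deposited tables. For pkp1.L, at a mean of 3.25 and 4.77 normalised counts, no change was detectable at this depth.

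**Figure D2:**
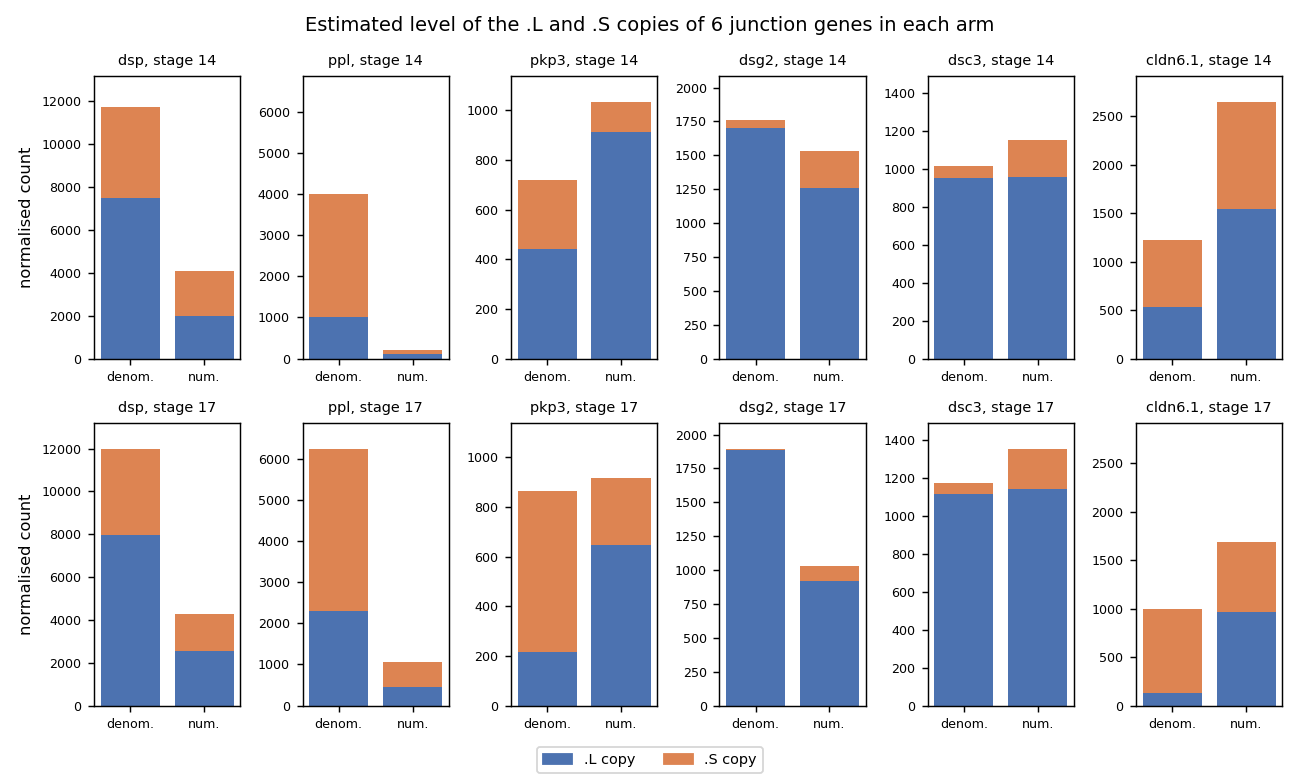
Estimated normalised count of the .L copy (blue) and the .S copy (orange), stacked, in the denominator and numerator arm for 6 junction genes at stage 14 (top) and stage 17 (bottom). Both copies of dsp and ppl are lower in the numerator arm. For pkp3 at stage 17 the total of the pair is 865 and 915 while the .L share is 25% and 70.6%.

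Claudins, the strand-forming proteins, had 3 of 15 tested genes called at stage 14 and 1 of 16 at stage 17, per the authors' deposited tables. These shares were 20% and 6.25%, beside 8.68% and 9.96% of all genes. The claudin called at both stages was cldn6.1.L, and it was higher in the numerator arm. Its level was 527 and 1547 normalised counts in the denominator and numerator arm at stage 14, and 130.3 and 961 at stage 17. Per the authors' deposited tables this was a log2 fold change of 1.55 (adjusted p = 2.65e-04, SE 0.35) and 2.88 (adjusted p = 4.45e-05, SE 0.58), a 2.93-fold and 7.38-fold higher level of cldn6.1.L. Claudin 6 is known in mammals as a claudin of embryonic epithelia and pluripotent cells. The homeolog cldn6.1.S was not called, with 0.67 (adjusted p = 0.203, SE 0.32) and -0.25 (adjusted p = 0.869, SE 0.54) in the authors' deposited tables, and whether the copies differ was not tested. The adjacent gene cldn6.2 had positive values in both copies. The authors' deposited tables gave 0.075 (adjusted p = 0.945, SE 0.27) and 1.26 (adjusted p = 0.0585, SE 0.46) for cldn6.2.L and 0.75 (adjusted p = 0.0786, SE 0.28) and 0.92 (adjusted p = 0.107, SE 0.38) for cldn6.2.S, none of which was called. With copies averaged cldn6.2 was called at stage 17, at 1.06 (adjusted p = 0.004), and not at stage 14, at 0.40 (adjusted p = 0.199).

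Calls at stage 14 alone were made for cldn7.L and cldn8.1.L. At that stage cldn7.L, a claudin of many simple epithelia in mammals, was lower in the numerator arm, at 2033 against 3968 normalised counts. The authors' deposited table gave -0.97 (adjusted p = 0.014, SE 0.29) for cldn7.L at stage 14 and -0.21 (adjusted p = 0.789, SE 0.31) at stage 17, while cldn7.S was at 0.49 and 0.35 and was not called. Averaged over its copies, cldn7 was not called at stage 14 (-0.26, adjusted p = 0.507). The counts of cldn8.1.L were low, with a numerator arm under the floor at stage 14 and a denominator arm at 19.3 normalised counts. The point estimate was thus at least 6.45-fold lower. It was called, at -6.68 (adjusted p = 0.035, SE 2.23) in the authors' deposited table, with a 95% interval from -11.05 to -2.32. Its adjusted p at stage 17 was 0.11. Claudin 4 was not called in either copy. The authors' deposited tables gave -0.054 (adjusted p = 0.966, SE 0.28) and 0.27 (adjusted p = 0.719, SE 0.33) for cldn4.L and -0.81 (adjusted p = 0.158, SE 0.35) and -0.43 (adjusted p = 0.598, SE 0.39) for cldn4.S, and the 95% interval of cldn4.L ran from -0.60 to 0.49 at stage 14. Claudin 1, which seals the mammalian epidermis, had negative values in both copies at both stages without a call, and cldn1.S was at -1.99 (adjusted p = 0.717, SE 2.16) and -1.05 (adjusted p = 0.127, SE 0.45) in the authors' deposited tables. The stage 14 SE of cldn1.S was larger than that of 99.5% of the 200 genes nearest in mean count. For cldn1.L the authors' deposited tables gave -2.65 (adjusted p = 0.496, SE 1.91) and -0.93 (adjusted p = 0.439, SE 0.64). With copies averaged cldn1 was called at stage 17, at -1.01 (adjusted p = 0.0424), and not at stage 14, at -2.36 (adjusted p = 0.335). The mean normalised count of cldn1.S was 186 at stage 14 and 1197 at stage 17 in tables that were normalised separately. Both copies of cldn12 and cldn5 had an adjusted p-value of at least 0.263 wherever one was given. The rest of the claudins, cldn3.L, cldn10.L, cldn19.S and both copies of cldn34, had mean normalised counts from 1.52 to 19.6, and only cldn3.L and cldn34.L had an adjusted p-value, at stage 17, without a call.

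Among the other membrane proteins of tight junctions, tricellulin was called at both stages. Tricellulin, encoded by marveld2, sits where 3 cells meet. Its copy marveld2.L was at 185 normalised counts in the denominator and 732 in the numerator arm at stage 14, and at 78.6 and 279.7 at stage 17. The authors' deposited tables gave 1.99 (adjusted p = 1.88e-07, SE 0.33) and 1.83 (adjusted p = 0.00323, SE 0.48), a 3.96-fold and 3.56-fold higher level of marveld2.L in the numerator arm. The adhesion molecule f11r.S was lower in the numerator arm at stage 14, at -1.05 (adjusted p = 0.0207, SE 0.33) in the authors' deposited table, and at -0.51 (adjusted p = 0.397, SE 0.33) it was not called at stage 17. Its homeolog f11r.L was at -0.094 (adjusted p = 0.934, SE 0.29) and 0.28 (adjusted p = 0.598, SE 0.26) in the authors' deposited tables. Averaged over its copies, f11r was not called at stage 14 (-0.52, adjusted p = 0.11). Occludin, the first known strand protein, was represented by ocln.S and was not called, with -0.21 (adjusted p = 0.865, SE 0.38) and 0.44 (adjusted p = 0.707, SE 0.51) in the authors' deposited tables. The 95% interval of ocln.S ran from -0.95 to 0.53 at stage 14 and from -0.55 to 1.43 at stage 17. The relatives marveld3.L and cldnd1.L were not called at either stage, nor was marveld1 in either copy at stage 17, where it was listed.

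The cytoplasmic scaffolds of tight junctions had 0 of 8 genes called at stage 14 and 1 of 8 at stage 17 by the authors' adjusted p-value. Over all genes 8.68% and 9.96% were called. At an unadjusted p-value under 0.05, 1 gene passed at each stage, beside 18.0% and 19.8% of all genes. It was tjp3.L, which encodes zonula occludens protein 3, with -1.47 (adjusted p = 0.0844, SE 0.56) and -1.19 (adjusted p = 0.0497, SE 0.42) in the authors' deposited tables. Its levels were 411 and 148 normalised counts in the denominator and numerator arm at stage 14 and 367 and 160.4 at stage 17. The call of tjp3.L at stage 17 was lost (adjusted p = 0.0515) when Benjamini-Hochberg adjustment was repeated on the p-values listed. The homeolog tjp3.S was at -0.86 (SE 0.54) and -0.55 (SE 0.51) in the authors' deposited tables. With copies averaged tjp3 was called at both stages, at -1.15 (adjusted p = 0.0296) and -0.93 (adjusted p = 0.0332). For tjp1.S, the founding zonula occludens gene, the authors' deposited tables gave -0.25 (adjusted p = 0.806, SE 0.35) and -0.45 (adjusted p = 0.545, SE 0.37). Cingulin, which binds zonula occludens proteins and actin, was at 0.091 (adjusted p = 0.924, SE 0.24) and 0.25 (adjusted p = 0.715, SE 0.30) for cgn.L in the authors' deposited tables, with a 95% interval from -0.39 to 0.57 at stage 14. The low copy cgn.S was at 0.46 (SE 0.79) and -1.39 (SE 0.88) in the authors' deposited tables, and neither copy of cgnl1 was called.

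Connexins had 1 called gene at each stage, of 11 tested at stage 14 and 8 at stage 17, by the authors' adjusted p-values. Among all genes, 8.68% were called at stage 14 and 9.96% at stage 17. The called connexin was gjb1.L at both stages, which encodes connexin 32, a channel protein of liver and myelin in mammals. At stage 14 its numerator arm was under the floor and its denominator arm at 20.4 normalised counts, a point estimate at least 6.78-fold lower. The log2 fold change of gjb1.L at stage 14 was -6.75 (adjusted p = 0.0285, SE 2.19) in the authors' deposited table. Its 95% interval ran from -11.04 to -2.46. At stage 17 gjb1.L was at 171 and 26.2 normalised counts in the denominator and numerator arm, with a log2 fold change of -2.71 (adjusted p = 0.0197, SE 0.84) in the authors' deposited table. The connexins gjc1.L and gja7.S, with mean normalised counts between 1266 (gja7.S, stage 17) and 3537 (gjc1.L, stage 14), did not pass. RefSeq lists gjc1 as a synonym of gja7.S, and gjc1 encodes connexin 45. The authors' deposited tables gave 0.26 (adjusted p = 0.699, SE 0.27) and -0.083 (adjusted p = 0.924, SE 0.29) for gjc1.L, with 95% intervals from -0.27 to 0.79 and from -0.65 to 0.48. For gja7.S they were -0.27 (SE 0.28) and 0.19 (SE 0.34) in the authors' deposited tables. Connexin 43, the most studied gap junction protein, was represented by gja1.S at means of 3.97 and 3.64 normalised counts, too low for a change to be detectable. The mean normalised counts of gjb2, gjb5, gjb7 and gja5 lay between 1.42 (gja5.S, stage 17) and 12.7 (gjb2.L, stage 17), and none was called.

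**Figure D3:**
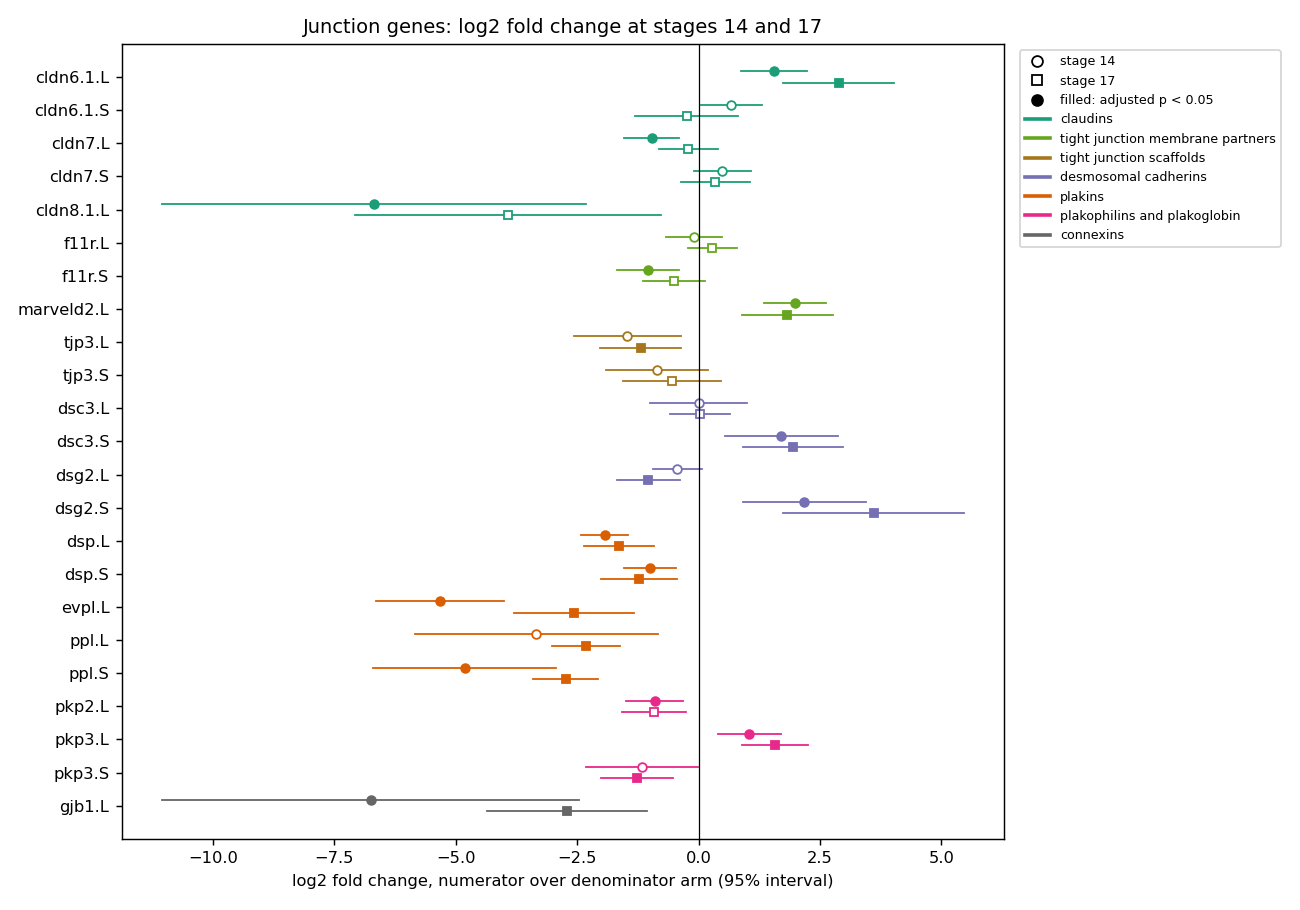
Log2 fold change with its 95% interval for 23 genes, each called at 1 stage or both or being a homeolog of such a gene, at stage 14 (circles) and stage 17 (squares), coloured by family, with filled symbols for an adjusted p-value under 0.05. The plakins lie left of 0 at both stages, and the copies of dsg2 and pkp3 lie on opposite sides.

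Some junction genes had homeologs with changes of opposite sign. At stage 17, 4 member pairs had both copies called, 2 with the same sign (dsp, ppl) and 2 with opposite signs (dsg2, pkp3). Over all genes 210 pairs had both copies called at stage 17, and 6 of these (2.86%) had opposite signs, so dsg2 and pkp3 made up 2 of 6. At stage 14, 1 member pair (dsp) had both copies called, with the same sign, beside 2 opposite pairs of 168 over all genes. Pairs with the same sign made up 12 of 20 member pairs (60.0%) at stage 14 and 10 of 18 (55.6%) at stage 17, beside 63.5% and 67.7% over all genes. The median absolute difference between copies was 1.18 and 0.67 on the log2 scale among the members, beside 0.55 and 0.48. For pkp3 at stage 17 the estimated sum of both copies was 865 normalised counts in the denominator and 915 in the numerator arm. Within this sum the .L copy made up 25% and 70.6%. For dsg2 the .S copy made up 3.45% and 17.9% of the sum at stage 14 and 0.456% and 10.3% at stage 17. The same shares for dsc3.S were 5.89% and 16.9% at stage 14 and 4.77% and 15.9% at stage 17. The copy with the smaller share was thus the one that was higher in the numerator arm in dsg2 and dsc3.

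The direction of change was shared between the stages for the called members. In all, 10 members were called at both stages, 71.4% of the calls of each stage, beside 39.4% of the stage 14 calls and 34.6% of the stage 17 calls over all genes. All 10 had the same sign at both, 5 positive and 5 negative, as did 575 of the 585 genes (98.3%) called at both stages over the whole tables. The 4 genes called at stage 14 only (cldn7.L, cldn8.1.L, f11r.S, pkp2.L) and the 4 called at stage 17 only (dsg2.L, pkp3.S, ppl.L, tjp3.L) also had the same sign at the other stage, beside 83.7% of all genes called at 1 stage and listed at the other. Among the 52 members with an adjusted p-value at both stages 40 (76.9%) had the same sign, beside 66.2% of 16194 genes. The stages share no sample. The difference between the stages was tested by a two-sided normal test on the deposited log2 fold changes and SEs with Benjamini-Hochberg adjustment over 16194 genes. By this test 0 of the 52 members differed at an adjusted p-value under 0.05, beside 1.51% of all genes, and 7 at an unadjusted p-value under 0.05, beside 8.58%. The lowest adjusted p-value was 0.121, for evpl.L. The change of evpl.L was more positive by 2.76 (SE 0.92, 95% interval from 0.95 to 4.57) on the log2 scale at stage 17. The corresponding difference was 1.33 for cldn6.1.L (SE 0.68) and 2.08 for ppl.S (SE 1.02), with adjusted p-values of 0.577 and 0.549. Differences of these sizes did not pass with these SEs.

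**Figure D4:**
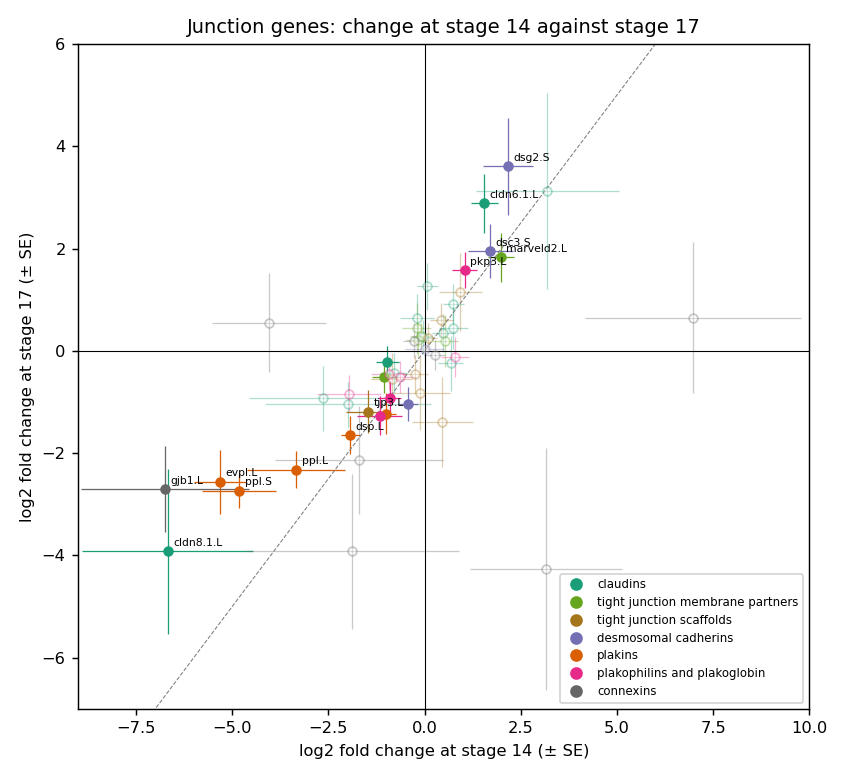
Log2 fold change of 52 members at stage 14 (x axis) against stage 17 (y axis), with bars of 1 SE and colours by family. Filled symbols mark genes called at 1 stage or both, those farthest from the origin are named, and the dashed line marks equal change. All 18 called genes lie where both values are negative or both are positive.

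Other genes of cell junctions and polarity were followed from a list of 60 symbols. In the authors' deposited tables, 11 of 76 tested genes (14.5%) were called at stage 14, 6 higher and 5 lower in the numerator arm. At stage 17 these were 10 of 74 (13.5%), 7 higher and 3 lower. Over all genes 8.68% (3.06% higher, 5.62% lower) were called at stage 14 and 9.96% (4.96% higher, 5.00% lower) at stage 17. E-cadherin cdh1.S, the adherens junction protein of the epidermis, was at -1.36 (adjusted p = 5.27e-06, SE 0.25) at stage 14 and -0.44 (adjusted p = 0.54, SE 0.35) at stage 17, per the authors' deposited tables. For cdh1.L these values were -3.14 (adjusted p = 0.0438, SE 1.08) and 0.31 (adjusted p = 0.922, SE 1.03). The adhesion gene nectin4.L was at -2.55 (adjusted p = 0.00196, SE 0.64) and -1.40 (adjusted p = 0.0346, SE 0.47) in the authors' deposited tables. The copy nectin4.S, at -1.45 (SE 0.55) and -0.23 (SE 0.55), was not called. The other genes called lower at stage 17 were arhgef18.L, at -3.49 (adjusted p = 8.23e-05, SE 0.73), and prkcz.L, at -3.34 (adjusted p = 7.17e-04, SE 0.78), in the authors' deposited table. Their .S copies were not called. In the other direction, the apical polarity gene crb2.L was at 2.03 (adjusted p = 0.00519, SE 0.55) at stage 14 and 1.40 (adjusted p = 0.113, SE 0.58) at stage 17 in the authors' deposited tables. Its homeolog crb2.S was called at both stages, at 6.32 (adjusted p = 1.42e-06, SE 1.12) and 3.88 (adjusted p = 0.047, SE 1.36) in the authors' deposited tables. The denominator arm of crb2.S at stage 14, at 1.23 normalised counts, was under the floor. The tight junction adhesion protein cxadr.L was at 1.17 (adjusted p = 0.003, SE 0.30) and 1.40 (adjusted p = 4.66e-05, SE 0.28) in the authors' deposited tables. The copy cxadr.S, at 1.30 (SE 0.56) and 0.56 (SE 0.92), was not called. At stage 17 the angulin gene ildr1.S, which in mammals recruits tricellulin to tricellular contacts, was higher at 1.56 (adjusted p = 5.81e-05, SE 0.32) in the authors' deposited table, while at stage 14 it was at 0.18 (adjusted p = 0.858, SE 0.31). Its homeolog ildr1.L was not called, at -0.35 and -0.47.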

How the data were processed

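Total RNA of 12 neural crest samples was sequenced with unstranded libraries, per the labels' protocols, so reads of overlapping or antisense genes cannot be told apart. STAR 2.7.3a and DESeq2 are named in the submitters' processing notes, and the genome build, annotation, counting and filters are not given in the sources used here. The authors deposited 2 tables of their own comparisons, 1 per stage. Per the file headers each row holds a mean normalised count (a signal scaled between libraries by the authors), a log2 fold change and its SE on the log2 scale, a test score (the fold change divided by its SE), and p-values before and after adjustment. The depth of the libraries is unknown. The number of genes behind the adjustment, read from the first gene of each deposited table as adjusted p-value over p-value, was 17088 at stage 14 and 22197 at stage 17, of which 5232 were not analysed here.

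Members and gene lists were chosen with earlier results of these data known. Of the 67 members, 66 matched a protein-coding symbol of the RefSeq annotation of assembly Xenopus_laevis_v10.1, which served for names and neighbours only. Its symbols hold 32 further genes that the name rule matches and that were not analysed here. Arm levels were computed as 2 values whose mean is the deposited mean and whose log2 ratio is the deposited fold change. The test of the stage difference was tested on simulated data. The text names members with a call at a stage, both copies of genes set in the design (cldn1, cldn4, cldn6, ocln, tjp1, cgn, f11r, dsp, jup, dsg2, dsc3, pkp1, pkp3, gja1, gjb1, gjc1) and their homeologs where listed. Of the other junction genes only some of those called are described, with homeologs. Others with lower p-values, such as patj.L at stage 14 and magi1.S at stage 17, are not described. Marker genes are named only where lists overlap, an arm was at the floor, genes of a list went in opposite directions or a sum rested largely on them. Other names were chosen after their values were seen. Results of some members are not reported here. Python 3.11.15, pandas 2.3.3, scipy 1.17.1 and statsmodels 0.14.6 were used. Alternatives were adjusted p thresholds of 0.01 and 0.1, the Benjamini-Hochberg adjustment recomputed over each table or its upper 75% by mean, a minimum absolute log2 fold change of 1, minimum means of 10 and 100, averaging of homeologs by inverse variance, and subtraction of the median of all genes.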

Additional observations from a re-analysis of the deposited data

How the results depend on the processing

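The number of members called stayed within 1.5 times of 14 under the alternatives tried, except at a threshold of 0.01, with 6 members at stage 14 (2 higher, 4 lower, beside 5.42% of all genes) and 9 at stage 17 (5 higher, 4 lower, beside 5.72%), and with homeologs averaged at stage 14, with 9 of 36 units, beside 11.8% of all units. Averaging gave 11 of 37 units at stage 17, beside 14.4%. The stricter threshold and the smaller number of units lower a count by construction. Otherwise the count lay between 11 and 18 over both stages. No member had a stage difference past the threshold under any of the 5 alternatives. The lowest adjusted p-value was 0.121, so the thresholds of 0.1 and 0.01 could give no call. The median log2 fold change of all members with a p-value was -0.20 at stage 14 and -0.45 at stage 17, and it stayed negative under each alternative, from -0.22 to -0.11 and from -0.46 to -0.16. Of the single genes named, tjp3.L at stage 17 lost its call under the recomputed adjustment (adjusted p = 0.0515), and pkp2.L (adjusted p = 0.0479) and cldn6.2.L (adjusted p = 0.0486) gained one at stage 17 when the adjustment covered only the 75% of genes with the highest means. The median of all genes was 0.022 and 0.014 at stages 14 and 17, so centring moved values by little. No paired analysis was possible because the tables hold no values per sample and the sample numbers are not shared between groups. For the same reason no replicate could be left out. At the median SE, a call required a log2 fold change of at least 1.48 in size at stage 14 and 1.33 at stage 17, which is the limit that depth and replicate spread set for a typical gene.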

Other observations

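The genes around the desmosomal cadherins, chosen after their values were seen, were not called. On the chromosome that carries dsc3.S and dsg2.S, RefSeq (Xenopus_laevis_v10.1) places as the next listed genes cdh2.S, whose log2 fold change was 0.71 (adjusted p = 0.281, SE 0.37) at stage 14 and 0.22 (adjusted p = 0.844, SE 0.41) at stage 17, and b4galt6.S, with 0.085 (SE 0.41) and 0.12 (SE 0.47), in the authors' deposited tables. The higher level in the numerator arm was thus called for dsc3.S and dsg2.S and not for the listed genes on either side, although the difference between them was not tested.

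Homeolog pairs called with opposite signs were few over all genes. At stage 17 they were aatk, cd81, dennd2a, dsg2, pkp3 and prdx6, and at stage 14 plekhg5 and stox1, chosen after their values were seen. Among these, pkp3.L and pkp3.S had log2 fold changes of 1.58 and -1.27 in the authors' deposited table of stage 17.

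The SE of the fold change exceeded the median SE of the 200 genes nearest in mean count for 35 of 56 members at stage 14 and for 44 of 55 at stage 17. It exceeded that of at least 95% of those genes for 12 and 8 members. The median ratio to the neighbours' SE was 1.07 and 1.13.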
